A study of Mus musculus with 45 samples.

Results

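The comparison set mouse brain tumours labelled Pdgfra C450 ins against tumours labelled Pdgfra E10 del.v2 within one range of sample numbers. The genotype label and the number in the sample title chose the arrays: 5 C450 ins arrays carried title numbers 26 to 30, and 3 E10 del.v2 arrays carried numbers 23 to 25, which makes 8 of the 45 arrays of the series. Both groups carried the p53null allele, came from the CD-1 nude strain and were labelled as a glioblastoma model. The series text describes retroviral constructs of the PDGF receptor alpha, wild type or mutant, used in cultured primary astrocytes of p53-null mice. The labels do not say what v2 stands for, which residues either variant adds or removes, which species the construct came from, or the age of the animals. Nor do they say that arrays of a group came from separate animals or cultures. A p-value here weighs a difference against the spread within groups, pooled over all 45 arrays and not only the 8 compared. That spread may be technical. A further 6 E10 del.v2 arrays had title numbers 56 to 64, and the other mutants of titles 1 to 30 (V544ins, D842V and E10 del) gave 13 arrays.

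PDGFRA is a receptor tyrosine kinase that PDGF ligands bring together in pairs, after which it signals through the RAS to ERK cascade and through PI3K and AKT, which keeps FOXO factors out of the nucleus. In the brain it marks oligodendrocyte progenitors and drives their division, and mutations that activate it without ligand occur in human paediatric high-grade glioma. CD-1 nude mice lack a thymus and so lack most T cells, but keep granulocytes, macrophages and microglia. The comparison asks whether tumours carrying different mutations of this one receptor differ in their transcripts.

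All values below are log2 signals of Affymetrix probe sets, and differences are C450 ins minus E10 del.v2 with the standard error of a limma fit over all 45 arrays. For arrays, their number limits the precision, and the C450 ins arrays varied more than the others. The median SD over genes was 0.365 in C450 ins (n = 5) and 0.171 in E10 del.v2 (n = 3). Correlations over genes between 2 arrays ran from 0.81 to 0.98 within C450 ins and from 0.97 to 0.98 within E10 del.v2. RNA integrity was read from Actb as its 3′ minus its 5′ signal, which ranged from 0.43 to 0.71 in C450 ins and from 0.45 to 0.70 in E10 del.v2. The same measure of Gapdh was 0.15, 0.15, 0.14, 0.25 and 0.24 in C450 ins and 0.15, 0.05 and 0.05 in E10 del.v2, lower in E10 del.v2 replicates 2 and 3 than in every other of the 8 arrays. Its part in the results was not tested.

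The tissue in the arrays differed within the C450 ins group. The mean of the neuron list, 15 tested genes such as Snap25 and Syt1, was 10.84, 9.73, 9.48, 6.15 and 5.95 in C450 ins replicates 1 to 5 and 10.28, 9.46 and 8.80 in the E10 del.v2 replicates. C450 ins replicates 4 and 5 lay below every E10 del.v2 array, and the other 3 lay within or above their range. The pituitary hormone list, with growth hormone and prolactin, averaged 12.44 in C450 ins replicate 5 and 6.74 in replicate 3, against 3.50 to 4.42 in the other C450 ins arrays and 3.31 to 3.56 in E10 del.v2. Pmch, the melanin-concentrating hormone gene of the hypothalamus, stood at 11.16 in C450 ins replicate 3 and at 11.76 in E10 del.v2 replicate 2, and at 4.48 or below in the other 6 arrays. Transcripts of the hypothalamus and the pituitary were thus high in single arrays, unevenly over the groups. Markers of oligodendrocyte progenitors were high in all 8 arrays. Olig1, a transcription factor gene of that lineage, was between 12.39 and 13.11 in C450 ins and between 13.00 and 13.33 in E10 del.v2. In such bulk samples fewer cells of a type and less RNA per cell cannot be told apart. What part these tissue differences have in the results below was not tested, except where values without these arrays are given.

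**Figure D1:**
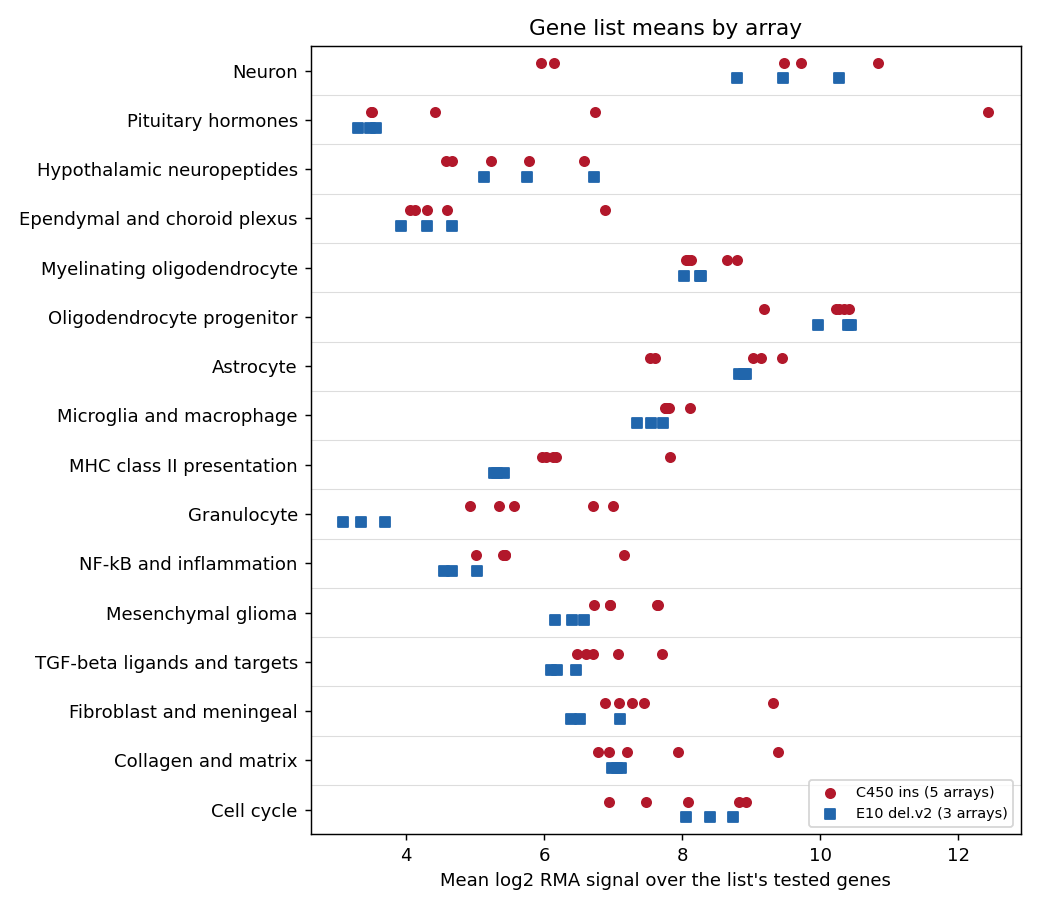
Mean log2 RMA signal over the tested genes of 16 gene lists (horizontal axis) in each C450 ins array (circles, above) and each E10 del.v2 array (squares, below). The neuron list splits the C450 ins arrays into 3 at 9.48 or more and 2 at 6.15 or less, and the granulocyte and class II lists lie higher in all 5 C450 ins arrays than in the 3 E10 del.v2 arrays.

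Across the genome 1 of 11809 tested genes passed an adjusted p under 0.05, which is 0.00847% of them, and it was lower in C450 ins. That gene was Uba1y, the Y-linked counterpart of the ubiquitin-activating enzyme gene Uba1, known in the mouse for its expression in the testis. Uba1y read 3.54, 3.63, 3.34, 4.81 and 3.62 in the C450 ins arrays, against 7.29, 5.22 and 7.13 in the E10 del.v2 arrays. The groups did not overlap, and E10 del.v2 replicate 2 lay closest to C450 ins. Uba1y fell by 2.76 ± 0.47 in C450 ins (adjusted p = 0.0128). The RMA table gives no detection call, and signals well under the table median of 4.79, such as those of Uba1y in C450 ins, may not be above background. Differences against such signals are differences of signal and give no exact fold of RNA. This applies here and to Prg4, Cyp1b1, Cxcl1, Il6, Tgfb1, Npas4, Ankrd63, Spink8 and the granulocyte genes, among others. A second probe set for Uba1y, not used in the fit, gave 3.12, 3.07, 3.03, 6.81 and 2.87 in C450 ins and 9.70, 7.22 and 9.51 in E10 del.v2. Both probe sets put C450 ins replicate 4 above the other 4 of its group. The call rested on single arrays: without C450 ins replicate 1 or 3, or E10 del.v2 replicate 1 or 3, the adjusted p was 0.0545, 0.0682, 0.931 and 0.683, while the difference was -2.70, -2.65, -2.38 and -2.47. Against the 6 E10 del.v2 arrays of titles 41 to 64 the difference of Uba1y was 0.21, since their level ran from 2.75 to 5.20. Raised Uba1y also occurred in other genotypes. The highest value was 5.67 in V544ins of titles 41 to 64 (median 3.40) and 5.43 in E7 del (median 3.49).

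The other genes of the sex chromosomes did not pass. Xist, the X-inactivation RNA of female cells, was 12.05, 11.35, 11.72, 9.71 and 11.18 in C450 ins and 11.05, 11.03 and 10.60 in E10 del.v2. Eif2s3y, a Y-linked translation factor gene of male cells, was 5.17, 7.79, 7.66, 7.66 and 8.74 in C450 ins and 8.18, 8.37 and 8.37 in E10 del.v2. Every array thus carried both a female and a male transcript, and the groups overlapped for both. Kdm5d and Uty, 2 further Y-linked genes, had differences of -0.50 ± 1.06 and -0.87 ± 0.80. C450 ins replicate 1 was the lowest of the 8 arrays for all 3 Y-linked genes, at 4.76 for Kdm5d and 3.24 for Uty. C450 ins replicate 4, the highest of its group for Uba1y, was below replicate 5 for each of these 3 genes.

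Below the threshold, 203 genes were higher and 127 were lower in C450 ins at an unadjusted p under 0.05, which is 1.72% and 1.08% of those tested and 2.79% together. That joint share is under the 0.05 that such a cut takes on average where no gene differs. The 330 genes of either direction became 156, 212 and 169 without E10 del.v2 replicate 1, 2 and 3, and 214 without C450 ins replicate 4. They became 464 and 449 without C450 ins replicates 2 and 3. A fit of only the arrays of titles 1 to 30 gave 772, and a fit of only the 8 arrays gave 819. In 637 genes (5.39%) every C450 ins array lay above every E10 del.v2 array, and in 336 (2.85%) every one lay below. The median difference over all genes was 0.0044. Groups that do not overlap in this way are called apart below. With arrays weighted by their estimated quality (limma arrayWeights) 895 genes passed, 596 higher and 299 lower, with weights from 0.334 to 9.15 in C450 ins and from 1.62 to 9.64 in E10 del.v2. Apart from Uba1y, none of the genes below passed the adjusted test between these 2 groups, so their values are descriptions.

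The higher genes with the smallest unadjusted p were mostly on chromosome 19. None of them was near to passing: the smallest adjusted p of any gene not called in the limma fit was 0.999973. Of the 12 with the smallest p, predicted genes passed over, 10 lie there: Pcnx3, Ndufs8, Actr1a, Mrpl43, Poll, Nudt8, Zfpl1, Trmt112, Syvn1 and Fau. They do unrelated work: Ndufs8 encodes a subunit of mitochondrial complex I, Actr1a the dynactin subunit ARP1, Poll a DNA repair polymerase, and Syvn1 a ubiquitin ligase of the endoplasmic reticulum. Ndufs8 was 10.83, 10.98, 10.90, 11.25 and 10.83 in C450 ins, against 10.48, 10.60 and 10.32 in E10 del.v2, a difference of 0.49 ± 0.14. Pcnx3 was 7.86, 7.94, 7.97, 8.33 and 8.14 in C450 ins, against 7.22, 7.32 and 7.54 in E10 del.v2, a difference of 0.68 ± 0.19. In all 10 of these genes the groups were apart, and the differences ran from 0.40 for Fau to 0.84 for Nudt8. They were picked by smallest p between these same groups, so that they were apart follows largely from the choice.

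The same shift ran through the whole of chromosome 19. Over its 409 tested genes the median difference was 0.33, 86.6% of genes had a higher mean in C450 ins, and 113 lay higher in every C450 ins array against 1 lower. Those 113 were 27.6% of the chromosome's genes, against 5.39% of all tested genes. At an unadjusted p under 0.05, 81 genes were higher and 2 lower. They made up 39.9% of all genes higher at that level, and 20.3% of the chromosome's genes reached it in either direction. On chromosomes 1 to 18 and X that share lay between 0.529% and 3.51%, and the median differences lay between -0.11 and 0.14. Chromosome 19 was picked out after its values had been seen, so no test was made of it.

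Each array's chromosome 19 median was taken relative to the array's own median over all genes, as a deviation from the mean of the 45 arrays. It was 0.08, 0.05, 0.02, 0.07 and 0.12 in C450 ins and -0.22, -0.24 and -0.38 in E10 del.v2. The C450 ins arrays sat near 0 and the E10 del.v2 arrays all lay below it. Set against the mean of V544ins, D842V and E10 del, the median difference of the chromosome was 0.06 for C450 ins and -0.34 for E10 del.v2. With the genes split into 5 runs of 81 or 82 neighbours along the chromosome, in the gene order of assembly GRCm38.p6, the difference ran from 0.27 to 0.40. The groups were apart in each of the 5 runs. Split by mean level instead, the low, middle and high portions gave 0.33, 0.36 and 0.32. Copy number was not measured in these samples.

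**Figure D2:**
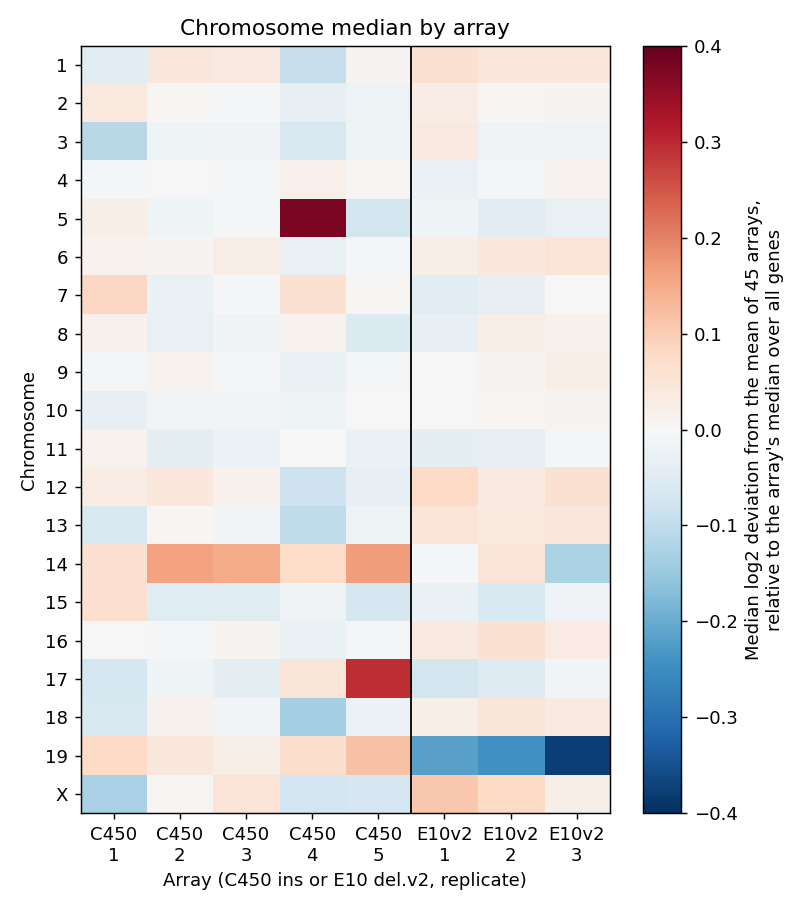
Median log2 deviation of each chromosome's genes (rows) in the 5 C450 ins arrays (left) and the 3 E10 del.v2 arrays (right), relative to the array's median over all genes. Chromosome 19 is between -0.38 and -0.22 in E10 del.v2 and between 0.02 and 0.12 in C450 ins, and chromosome 5 stands at 0.38 in C450 ins replicate 4.

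The low chromosome 19 was not particular to this genotype. The 6 E10 del.v2 arrays of titles 41 to 64 ran from -0.36 to 0.16, with a median of -0.01, and C450 ins minus those arrays gave 0.11. With all 9 E10 del.v2 arrays as 1 group it was 0.19. E7 del reached -0.58 and the V544ins arrays of titles 41 to 64 reached -0.38, whereas D842V stayed between 0.10 and 0.14. Dropping 1 of the 8 arrays at a time left the median between 0.29 and 0.38, but without E10 del.v2 replicate 3 the number of genes higher at an unadjusted p under 0.05 was 37 in place of 81.

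**Figure D3:**
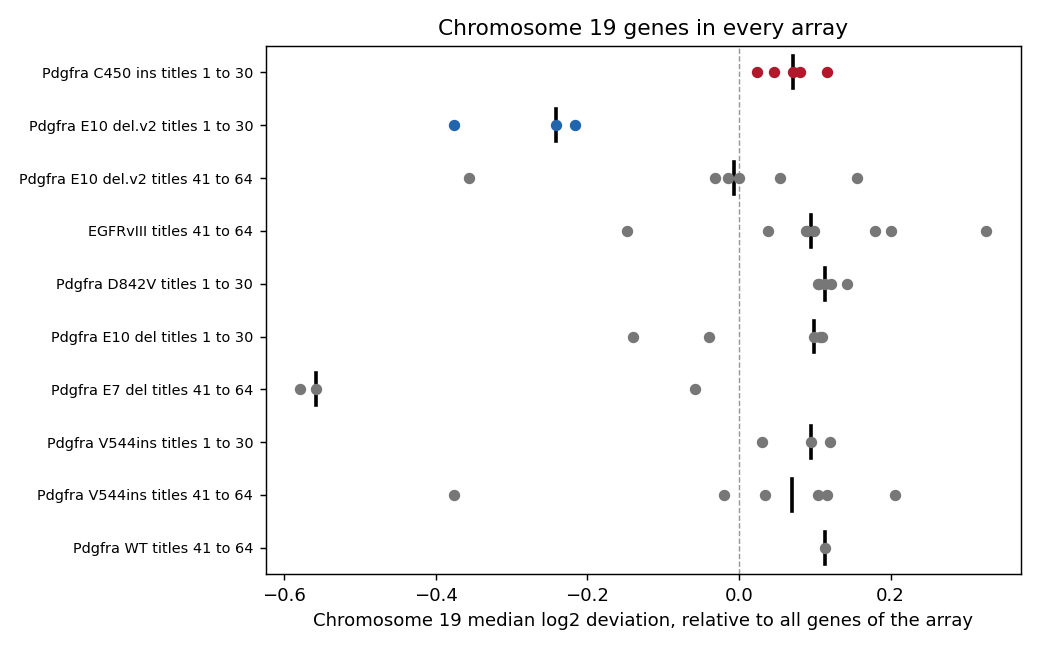
Chromosome 19 median log2 deviation (horizontal axis), relative to all genes of the array, for every array of the 10 groups of genotype and title range, with a bar at each group's median. The 3 E10 del.v2 arrays of titles 1 to 30 lie between -0.38 and -0.22, and low arrays also occur in E7 del, V544ins and the E10 del.v2 arrays of titles 41 to 64.

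Single C450 ins arrays stood apart on 2 other chromosomes. Chromosome 5, which carries Pdgfra, was at 0.38 in C450 ins replicate 4 and between -0.07 and 0.02 in the other C450 ins arrays, with -0.04 to -0.02 in E10 del.v2. In its 5 runs of neighbouring genes replicate 4 was at 0.27 to 0.53. Chromosome 17 was at 0.30 in replicate 5, against -0.07 to 0.05 in the other C450 ins arrays and -0.07 to -0.01 in E10 del.v2. The groups were also apart on 6 further chromosomes, by less. Chromosome 14 was higher in C450 ins, at 0.07 to 0.17 against -0.13 to 0.05 in E10 del.v2. Chromosomes 3, 10, 13, 16 and 18 were lower in C450 ins, for example chromosome 13 at -0.10 to 0.01 against 0.04 to 0.05 in E10 del.v2.

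The receptors themselves did not separate the groups. Pdgfra was 6.54, 7.33, 7.56, 8.14 and 7.21 in C450 ins and 6.98, 7.86 and 7.92 in E10 del.v2. The highest value was in C450 ins replicate 4, the array with the high chromosome 5, and the groups overlapped. The difference was -0.23 ± 0.85, with a 95% interval from -1.96 to 1.50, which leaves room for more than a 2-fold difference either way. A 3′ probe set for mouse Pdgfra may or may not read the delivered construct, and the labels do not settle this. Egfr, another receptor gene altered in glioma, was 7.53, 7.66, 7.09, 4.24 and 6.63 in C450 ins and 6.67, 5.72 and 6.34 in E10 del.v2, a difference of 0.39 ± 0.65. Of the 5 tested PDGF receptor and ligand genes, 3 had a positive difference, with a median of 0.09, and none separated the groups.

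No gene downstream of the receptor passed the test. Of 19 ERK feedback and output genes 7 had a positive and 12 a negative difference, with a median of -0.06, which was 0.02 without C450 ins replicates 4 and 5. Dusp6, the phosphatase that ERK induces against itself, was 9.69, 10.02, 10.49, 9.71 and 9.90 in C450 ins and 11.08, 10.62 and 10.22 in E10 del.v2, a difference of -0.67 ± 0.30. C450 ins replicate 3 overlapped with E10 del.v2 replicate 3. Ier3, an early gene of stress and growth signals, was 1.51 ± 0.57 higher in C450 ins on average, again with overlap. The 10 FOXO target genes had a median of -0.17. Of the 23 cell cycle genes 20 had a negative difference (median -0.31), but the list mean was 6.94, 7.48, 8.09, 8.83 and 8.93 in C450 ins and 8.06, 8.41 and 8.74 in E10 del.v2. C450 ins replicates 4 and 5, with the lowest neuron means, had the highest cell cycle means. The cell cycle median was -0.08 without C450 ins replicate 1, and 0.81 against the E10 del.v2 arrays of titles 41 to 64. Without C450 ins replicates 4 and 5 it was -0.97, with 9 members apart and lower. With those arrays left out, 1042 of all 11809 tested genes were apart and lower, and 1231 were apart and higher.

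**Figure D4:**
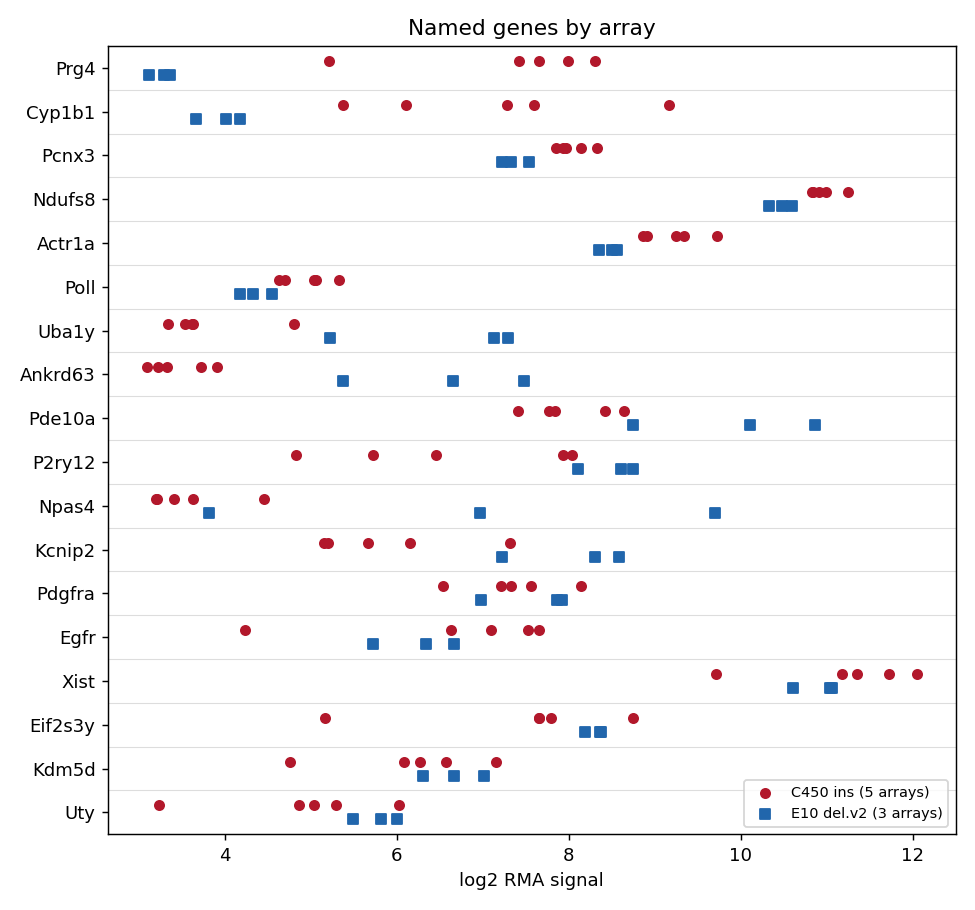
Log2 RMA signal (horizontal axis) of 18 genes in each C450 ins array (circles, above) and each E10 del.v2 array (squares, below). Uba1y is between 3.34 and 4.81 in C450 ins and between 5.22 and 7.29 in E10 del.v2, Prg4 is between 5.21 and 8.30 and between 3.12 and 3.36, and Pdgfra overlaps.

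The largest differences among the named higher genes were outside chromosome 19. Prg4, which encodes the joint lubricant lubricin, was 7.99, 7.66, 5.21, 7.42 and 8.30 in C450 ins, against 3.29, 3.36 and 3.12 in E10 del.v2. All 5 C450 ins arrays were above all 3 others, and the difference was 4.06 ± 1.14. The other mutants of titles 1 to 30 spanned this gap, from 2.83 to 8.12. Cyp1b1, a cytochrome P450 induced through the aryl hydrocarbon receptor, was 7.28, 6.11, 5.38, 7.60 and 9.17 in C450 ins, against 3.66, 4.18 and 4.02 in E10 del.v2, a difference of 3.15 ± 0.93. With the mean of all probe sets of Cyp1b1 it was 1.39 ± 0.46. Igf2, the imprinted fetal growth factor gene, was 8.03, 5.68, 8.08, 7.07 and 8.49 in C450 ins, against 4.78, 5.44 and 5.12 in E10 del.v2. Its difference was 2.36 ± 0.82, and C450 ins replicate 2 was just above the highest E10 del.v2 array.

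Genes that granulocytes and inflamed tissue share had higher means in C450 ins. Lcn2, the iron-binding acute phase protein lipocalin 2, was 8.36, 8.97, 6.11, 5.78 and 7.77 in C450 ins, against 3.23, 3.66 and 4.29 in E10 del.v2. S100a9, a subunit of the calprotectin complex of neutrophils, was 8.34, 4.94, 5.49, 6.19 and 6.83 in C450 ins, against 3.23, 3.39 and 3.64 in E10 del.v2. Its partner S100a8 was 7.70, 4.42, 4.89, 5.88 and 6.92 in C450 ins, against 2.73, 3.13 and 3.54 in E10 del.v2. For these 3 genes every C450 ins array was above every E10 del.v2 array, and the differences were 3.67 ± 1.48, 2.94 ± 1.12 and 2.83 ± 1.10. Apart and higher in this way were 5.39% of all tested genes. Ngp, a neutrophil granule gene, overlapped between the groups at 3.04 to 5.34 in C450 ins and 3.13 to 3.31 in E10 del.v2. Of the list's 10 symbols 9 were read from the array and 4 passed the filter on low values. The E10 del.v2 levels of the 3 high genes were below the table median, and without the filter the list's median was 0.54 in place of 2.88. Markers of T, B and natural killer cells were near the floor. Of 12 symbols 11 were read from the array and 1, Cd4, passed the filter, with a difference of 0.01.

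The NF-kB list, genes that this inflammatory transcription factor induces or that build its feedback, leaned the same way. All 15 tested members had a higher mean in C450 ins, with a median difference of 0.87. Of them 2 had an unadjusted p under 0.05, and 7 were apart, namely Cxcl1, Relb, Il6, Icam1, Nfkb2, Cxcl2 and Tnfaip3. Among all tested genes, 1.72% were higher at that unadjusted p and 5.39% were apart and higher. Cxcl1, a chemokine that attracts neutrophils, was 7.91, 4.89, 6.09, 4.03 and 5.46 in C450 ins, against 3.69, 3.46 and 3.19 in E10 del.v2. Il6, the interleukin 6 gene, was 7.43, 4.14, 3.71, 3.09 and 4.63 in C450 ins, against 3.02, 2.86 and 2.86 in E10 del.v2. C450 ins replicate 1 was the highest array for both, and replicate 4 lay close to E10 del.v2. Icam1, a leukocyte adhesion molecule gene, was 6.42, 5.96, 5.98, 5.63 and 6.70 in C450 ins, against 4.94, 4.94 and 5.34 in E10 del.v2. The differences of these 3 genes were 2.23 ± 1.08, 1.69 ± 0.88 and 1.06 ± 0.61. Nfkb2 is itself on chromosome 19, with a difference of 0.57 ± 0.36. Without C450 ins replicate 1, the list's median was 0.69.

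The promoters of Cxcl1, Il6 and Icam1 are shown to give the letters before the start of members that were apart. They have the smallest p among the apart members whose window holds the motif, so that each holds it follows from the choice. Each run is the 250 bases before the gene's start in GRCm38.p6, on the gene's strand (+ in all 3), at chr5:90890995-90891244, chr5:30012864-30013113 and chr9:21015690-21015939. Capitals mark matches to an NF-kB type motif, 3 G, any 5 bases and then 2 C, on either strand, with overlapping matches merged.
Cxcl1: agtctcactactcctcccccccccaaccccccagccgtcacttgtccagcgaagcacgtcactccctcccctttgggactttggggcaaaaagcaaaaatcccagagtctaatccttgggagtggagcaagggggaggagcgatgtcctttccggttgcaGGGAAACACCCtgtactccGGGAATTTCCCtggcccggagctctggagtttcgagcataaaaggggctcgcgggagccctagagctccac
Il6: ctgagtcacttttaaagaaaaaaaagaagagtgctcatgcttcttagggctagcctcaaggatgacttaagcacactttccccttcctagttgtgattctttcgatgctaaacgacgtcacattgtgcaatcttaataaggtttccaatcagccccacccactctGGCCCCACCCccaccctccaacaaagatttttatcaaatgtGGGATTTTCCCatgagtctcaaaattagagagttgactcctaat
Icam1: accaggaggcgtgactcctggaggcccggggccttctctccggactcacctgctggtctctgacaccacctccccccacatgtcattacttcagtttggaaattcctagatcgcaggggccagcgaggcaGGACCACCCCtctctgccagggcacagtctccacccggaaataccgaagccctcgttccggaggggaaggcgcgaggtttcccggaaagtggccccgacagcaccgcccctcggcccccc
The Cxcl1 window holds 4 matches, that of Il6 3 and that of Icam1 1, counted on each strand, so that a site read on both strands counts for each. Of the 15 tested members 11 had a promoter in the table and 8 of these held the motif, against 45.8% of the 32851 promoters of the same length. The members were counted with 1 promoter a gene and the 45.8% over all promoter entries, so the units differ. A match is a description of the letters, and binding was not measured.

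**Figure D5:**
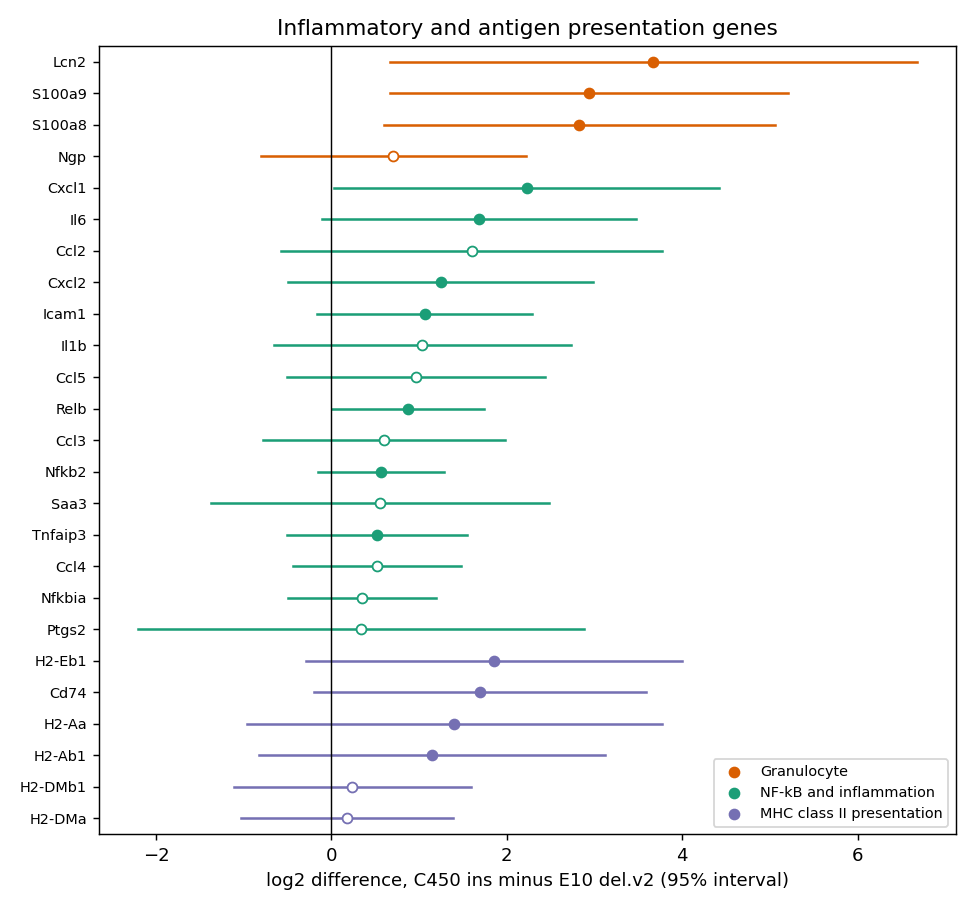
Log2 difference, C450 ins minus E10 del.v2, with its 95% interval from the limma fit (horizontal axis) for tested members of the granulocyte, NF-kB and class II lists. Filled points mark genes whose groups do not overlap. All 25 differences are positive and none passed the adjusted test.

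Antigen presentation genes had higher means in C450 ins as well. Of the 6 class II genes 4 were apart (Cd74, H2-Eb1, H2-Aa and H2-Ab1), against 5.39% of all tested genes apart and higher. Cd74, the invariant chain of class II molecules, was 6.51, 5.56, 5.99, 6.37 and 7.93 in C450 ins, against 4.88, 4.48 and 4.99 in E10 del.v2. C450 ins replicate 5, the array with pituitary transcripts, was the highest, and the list's median of 1.28 was 0.84 without it. Against the E10 del.v2 arrays of titles 41 to 64 it was -0.42. Among 17 microglia and macrophage genes 15 had a higher mean in C450 ins, with a median of 0.41. P2ry12, the purinergic receptor of resting microglia, went the other way, at 4.83, 7.94, 8.04, 5.72 and 6.45 in C450 ins against 8.61, 8.11 and 8.74 in E10 del.v2. Its difference was -1.89 ± 0.67, with replicate 3 of C450 ins just below the lowest E10 del.v2 array.

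Of 19 mesenchymal glioma genes 18 had a higher mean in C450 ins (median 0.65), and 8 were apart. The share of all tested genes apart and higher, 5.39%, stands beside this count and the TGF-beta and fibroblast counts below. Tgfbi, a matrix protein induced by TGF-beta, was 8.60, 7.89, 7.85, 9.17 and 10.78 in C450 ins, against 6.87, 5.82 and 6.06 in E10 del.v2, a difference of 2.61 ± 1.05. Timp1, an inhibitor of matrix metalloproteinases, was 10.12, 7.80, 6.69, 8.24 and 9.69 in C450 ins, against 6.46, 5.41 and 6.25 in E10 del.v2, a difference of 2.47 ± 1.03. Both were lowest in replicate 3 among the C450 ins arrays and still above E10 del.v2. Cd44, the hyaluronan receptor gene used as a mesenchymal marker, differed by 1.48 ± 0.82. The TGF-beta list had 4 of 11 members apart and a median of 0.55 (0.31 without C450 ins replicate 5). It also holds Tgfbi, which is 1 of those 4, so the 2 lists are not separate observations. Another of the 4 was Tgfb1, the ligand. Tgfb1 was 4.98, 3.52, 3.98, 4.44 and 4.39 in C450 ins and 3.15, 3.37 and 2.95 in E10 del.v2. Of 9 fibroblast genes 8 were positive and 2 were apart (median 0.67), with medians of 0.39 without C450 ins replicates 3 and 5 and 0.40 without replicates 4 and 5. Their mean was 9.32 in C450 ins replicate 5, against 6.88 to 7.45 in the other C450 ins arrays and 6.39 to 7.10 in E10 del.v2. The collagen and matrix list had a median of 0.65 with no member apart, and -0.03 without C450 ins replicates 4 and 5. The interferon list had 12 of 13 positive members and a median of 0.55. Its members Ifit1, Ifit2 and Ifit3 are on chromosome 19. That median was 0.35 without C450 ins replicate 2, 0.98 without replicates 3 and 5 and -0.44 against the E10 del.v2 arrays of titles 41 to 64.

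Other named genes had lower means in C450 ins. Ankrd63, an ankyrin repeat gene, was 3.91, 3.09, 3.73, 3.33 and 3.23 in C450 ins, against 6.65, 5.38 and 7.48 in E10 del.v2, a difference of -3.04 ± 0.84. Pde10a, the phosphodiesterase of striatal projection neurons, was 7.77, 8.64, 8.42, 7.41 and 7.84 in C450 ins, against 10.11, 8.74 and 10.86 in E10 del.v2, a difference of -1.89 ± 0.66 (-1.24 with the mean of the gene's probe sets). The hypothalamic neuropeptide list, which also holds Penk and Tac1, had 11 of 17 members negative (median -0.56), and a median of -0.0023 without C450 ins replicates 4 and 5. Penk and Tac1, the enkephalin and substance P precursors, differed by -3.45 ± 1.37 and -3.25 ± 1.29. In each of these 4 genes the groups were apart, which follows largely from their choice by smallest p. E10 del.v2 replicate 2 was the lowest of its group in each. Penk was 7.19, 5.57, 7.23, 5.23 and 6.12 in C450 ins and 10.18, 7.60 and 11.38 in E10 del.v2. The neuron list as a whole had a median of -1.16 with all 15 members negative, yet no member was apart, and the median was 0.45 without C450 ins replicates 4 and 5.

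Immediate early genes, which neurons switch on with activity and other cells with growth signals, had 14 of 16 members negative and a median of -0.62. Npas4, a factor specific to active neurons and located on chromosome 19, was 4.46, 3.42, 3.63, 3.21 and 3.21 in C450 ins, against 9.69, 3.81 and 6.97 in E10 del.v2, a difference of -3.24 ± 1.18, or -1.81 without E10 del.v2 replicate 1. Egr1 was 10.94, 10.41, 10.56, 10.62 and 10.07 in C450 ins, against 12.25, 11.02 and 11.45 in E10 del.v2, a difference of -1.06 ± 0.46. E10 del.v2 replicate 1 was the highest array for both, and without it the median of the list was -0.06. Of 9 kainate and AMPA receptor genes 3 were apart and lower in C450 ins (Grik2, Gria3 and Gria2), and the list's median was -0.64. Apart and lower were 2.85% of all tested genes. Gria2, the AMPA receptor subunit that limits calcium entry, was 10.99, 10.79, 10.82, 10.35 and 10.29 in C450 ins, against 11.60, 11.18 and 11.10 in E10 del.v2. The remaining named lower genes (Ythdf3, Armc1, Zfp455, Hace1, Cnot7, Kcnip2 and Usf1) differed by -2.14 to -0.29. Hba-a1 was 2.42 ± 1.19 higher in C450 ins, but the near-identical alpha globin copies share probes, and its values are uncertain.

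The cell type and pathway lists not yet given held no called gene. Of 15 oligodendrocyte progenitor genes 10 had a negative difference, and 2 were apart and lower in C450 ins, against 2.85% of all tested genes. The list's median was -0.29, or -0.15 without C450 ins replicate 1 and 0.11 against the E10 del.v2 arrays of titles 41 to 64. Of 16 genes of myelinating oligodendrocytes 10 had a positive difference (median 0.28), with 3 apart and higher, against 5.39% of all tested genes. Astrocyte genes were negative in 13 of 15 (median -0.27). Without C450 ins replicates 4 and 5 the astrocyte median was 0.36, with 6 members apart and higher. In that setting 1231 of all 11809 tested genes were apart and higher. Gfap, the astrocyte filament gene, was 10.01, 10.47, 9.22, 7.01 and 7.70 in C450 ins and 8.93, 8.79 and 9.13 in E10 del.v2, so its groups overlapped. Among vessel genes Cdh5, the endothelial cadherin, differed by 1.10 (unadjusted p = 0.0328), and the medians were 0.24 over 12 endothelial and 0.51 over 5 pericyte genes. Of 13 ependymal and choroid plexus genes, 10 were positive (median 0.33), and Ttr, the transthyretin gene of choroid plexus, was 13.28 in C450 ins replicate 3 against 5.07 to 8.66 in the other C450 ins arrays and 6.54 to 8.39 in E10 del.v2. The hypoxia list had 13 of 15 positive (median 0.23), cholesterol synthesis 11 of 15 (median 0.11) and imprinted growth genes 7 of 8 (median 0.47). The medians of the 10 remaining pathway and fate lists ran from -0.33 for Notch to 0.30 for CDK inhibitors.

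Set against the mean of V544ins, D842V and E10 del, each group had 2 called genes of 11809, which is 0.0169%. At an unadjusted p under 0.05, 9.70% of genes were higher and 5.65% lower in C450 ins, and 6.78% were higher and 2.05% lower in E10 del.v2. The 1813 genes of C450 ins became 2743, 715 and 1037 without its replicate 1, 4 and 5 and 743 with neuron and myelin content as a covariate, and the 1043 of E10 del.v2 became 490 and 340 without its replicate 2 and 3. These comparisons share their 13 other arrays, so likeness between them is not independent. Spink8, a Kazal-type peptidase inhibitor gene, was called in both: it fell by 2.60 ± 0.31 in C450 ins (adjusted p = 5.38e-06) and by 2.34 ± 0.38 in E10 del.v2 (adjusted p = 0.00206). Spink8 was 3.06, 2.97, 3.07, 2.83 and 2.99 in C450 ins and 3.30, 3.15 and 3.29 in E10 del.v2. The other mutants ran from 3.32 to 7.10. Rgs14, a regulator of G protein signalling known from hippocampal neurons, fell by 2.09 ± 0.40 in C450 ins (adjusted p = 0.0346). It was 6.33, 4.67, 4.80, 4.22 and 3.68 in C450 ins and 6.10, 5.05 and 5.56 in E10 del.v2, and with any 1 of C450 ins replicates 2 to 5 left out it was not called. Uba1y rose by 3.10 ± 0.42 in E10 del.v2 (adjusted p = 8.75e-05) and had a difference of 0.35 ± 0.34 in C450 ins. Meox1, a mesodermal homeobox gene, was 7.83, 8.08, 8.99, 8.86 and 6.90 in C450 ins and 7.92, 8.49 and 8.68 in E10 del.v2. The groups compared here overlapped for Meox1, and its medians in V544ins, D842V and E10 del were 5.78, 4.79 and 5.04. Its differences from those mutants, 2.66 ± 0.62 and 2.90 ± 0.75, did not pass (adjusted p = 0.105 and 0.506).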

How the data were processed

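Affymetrix 3′ expression arrays of 100 ng total RNA were used. The deposited values are log2 signals made by the authors with RMA (background correction, quantile normalisation and summary over a probe set), per the labels' protocols and the submitters' processing notes. Its version and settings are not given in the sources used here. No depth applies.

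Of 45141 probe sets 28898 name 1 gene symbol, 551 several and 15692 none. Each gene was read from its probe set with the highest mean, and 11809 of 17097 genes stayed after a filter that asked for 3 arrays above 4.79, the median of the table. limma 3.58.1 in R 4.3.3 was fitted to all 45 arrays with a mean for each of 10 groups of genotype and title range (residual df 35), with Benjamini-Hochberg adjustment over all genes and a threshold of 0.05. The fit was tested on simulated data.

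The text names up to 12 genes per direction, called ones first by size of difference and then others by smallest p, Pdgfra, Egfr, Xist and the Y-linked genes, and up to 4 members of each described list by smallest p, with further members chosen after their values were seen. The arrays compared and the 40 gene lists (562 symbols) were chosen with earlier results of these data known. Chromosome medians were added after seeing the data. Promoters are from RefSeq (GRCm38.p6). Alternatives changed the filter, probe set rule, normalisation, prior, array weights, samples and covariate. Trp53 and Ddx3y were not analysed here.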

Additional observations from a re-analysis of the deposited data

Results flagged for a closer look

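In 90 groups of 5 C450 ins values (named genes, list means and chromosome medians), 13 had 1 array farther from the rest than Dixon's critical ratio of 0.71 allows. For a single group chance gives about 1 in 20. The 90 groups reuse the same 5 arrays, some lists share genes, and the named genes were picked from these data. The 13 therefore cannot be weighed against that rate. E10 del.v2, with 3 arrays, was not examined in this way.

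Replicate 5 stood high for list means of MHC class II (7.83, others 5.97 to 6.18), fibroblast and meningeal genes (9.32, others 6.88 to 7.45) and microglia and macrophages (8.11, others 7.76 to 7.81), and low for kainate and AMPA receptors (7.24, others 7.81 to 8.03). Replicate 1 stood high for the NF-kB list (7.17, others 5.02 to 5.43) and immediate early genes (7.55, others 6.57 to 6.82). It stood low for oligodendrocyte progenitor genes (9.19, others 10.2 to 10.4) and the Notch list (6.49, others 7.23 to 7.43). Replicate 3 was high for ependymal and choroid plexus genes (6.88, others 4.05 to 4.59) and low for Prg4 (5.21, others 7.42 to 8.30). Replicate 4 was high for Uba1y (4.81, others 3.34 to 3.63), for the 2 tested Hox genes (6.18, others 3.08 to 3.70) and for chromosome 5 (0.38, others -0.07 to 0.02). The cause of these values was not tested.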

How the results depend on the processing

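The 1 called gene of C450 ins against E10 del.v2 became 0 in a fit of only the 8 arrays and without C450 ins replicates 3 and 5. It also became 0 against the E10 del.v2 arrays of titles 41 to 64 and with all 9 E10 del.v2 arrays as 1 group. A filter of 8 arrays gave 0 because it removed Uba1y before the test. The count was 895 with arrayWeights, and 0 to 1 with 1 array left out. C450 ins against the other mutants gave 2, and 1 with no filter, with the host brain covariate (mean of neuron and myelin lists) and without replicates 3 and 5 or 4 and 5. It gave 5 with the mean of probe sets, 10 in titles 1 to 30 only, 5594 with arrayWeights and 1 to 14 with 1 array left out (14 without C450 ins replicate 1). E10 del.v2 against the other mutants gave 2, and 1 with the filter of 8 arrays, where Uba1y was not tested. This comparison gave 26 in titles 1 to 30 only, 6350 with arrayWeights and 1 to 2 with 1 array left out. The chromosome 19 median was 0.11 against the E10 del.v2 arrays of titles 41 to 64, 0.19 with all 9, 0.21 with no filter, and 0.29 to 0.38 with 1 array left out. Against the arrays of titles 41 to 64, Uba1y turned to 0.21, Pdgfra to 0.56 and Kdm5d to 0.10, and Pdgfra was 0.30 with all 9. Only under arrayWeights did 19 further named genes pass. The cause of these changes was not tested. Leaving out 2 arrays together, the chromosome 19 medians and the list medians were chosen after seeing the data. No paired analysis was possible because the labels give no shared replicate numbers.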
